A study of Arabidopsis thaliana with 12 samples.

Results

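The ABA response in white light is the difference between 2 groups of 3 arrays, 6 of the 12 arrays of the series. RNA was taken from shoots (aerial parts) of Arabidopsis thaliana harvested on day 10. The members were chosen by the labels alone: plants kept in white light and given abscisic acid (ABA) for 24 hours, and plants kept in white light for the same 24 hours with a mock treatment. Before that, both had 9 days of uninterrupted white light at 22 °C. The labels give the white light as 80 mmol/m2sec and the ABA as 1 mM, with prefixes that could not be checked. The other 6 arrays are used here to compare and to estimate the spread of each probe set. Their plants spent the 24 hours under white light with supplemental far-red light labelled as 6 mmol/m2sec, with ABA or without it. No genotype or accession of the plants is given in the sources used here. Each group's 3 arrays are labelled as biological replicates, with nothing further on how they were grown, and p-values measure only the spread between them. The unit throughout is log2 expression from robust multi-array averaging (RMA), so a difference of 1 is a 2-fold change. Called means a limma adjusted p (Benjamini-Hochberg over 22746 probe sets) under 0.05.

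ABA is made by plants that lose water and by maturing seeds. It binds receptors that inhibit a clade of protein phosphatases, which frees SnRK2 kinases to activate transcription factors of the bZIP class. In leaves the pathway is known for closing stomata, for raising transcripts of hydrophilic protective proteins, and for slowing growth. The core genes of the pathway could not be followed, because the probe sets that carry a gene name here included none of the 14 listed receptors, 9 phosphatases, 10 SnRK2 kinases or 17 transcription factors. What follows therefore describes differences between plants with and without ABA, gene by gene, among 13513 probe sets with a single named gene. Whether these differences are direct output of the pathway or secondary effects of the treatment was not tested.

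The 3 arrays with ABA correlated with each other at 0.996 to 0.998 across probe sets, the 3 without it at 0.996 in each pair, and arrays of different groups at 0.991 to 0.993. The leaf markers RCA, PRK, SBPASE, LHCB4.1, LHCB4.2 and LHCB4.3, genes of carbon fixation and light harvesting, had mean levels of 9.32 to 13.3 log2 units in white light with ABA and 9.41 to 13.3 in white light. None of the 6 was called, and their median difference was 0.03. The root expansins EXPA7 and EXPA18 were detected on no array of either group. Probe sets called present by the deposited detection calls made up 64.3% to 65.7% with ABA and 60.6% to 63.0% without it, a difference of 3.20 percentage points (p = 0.1 by a two-sided exact permutation test, the lowest value 3 arrays against 3 can give). The part of this shift in the differences below was not tested.

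ABA changed the level of 1463 probe sets, 6.43% of those tested. Of these, 914 were higher with ABA, 4.02% of those tested, and 549 were lower, 2.41%. Most changes were small: the median called rise was 1.43-fold and the median called fall 1.38-fold. At least 2-fold changes numbered 160, 0.703% of all, with 119 higher and 41 lower. The ranges of the 2 groups did not overlap for 5599 probe sets, 24.6% of all, called or not. The number of calls grew with the level of the probe set. Of 4 equal classes by mean level, in the lowest 14 probe sets were higher and 5 lower, and in the highest 356 were higher and 288 lower. The excess of rises depended on the scaling, since with arrays centred on their medians 703 were higher and 900 lower. Leaving out replicate 1 of white light with ABA left 908 called, and leaving out replicate 2 left 949.

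**Figure D1:**
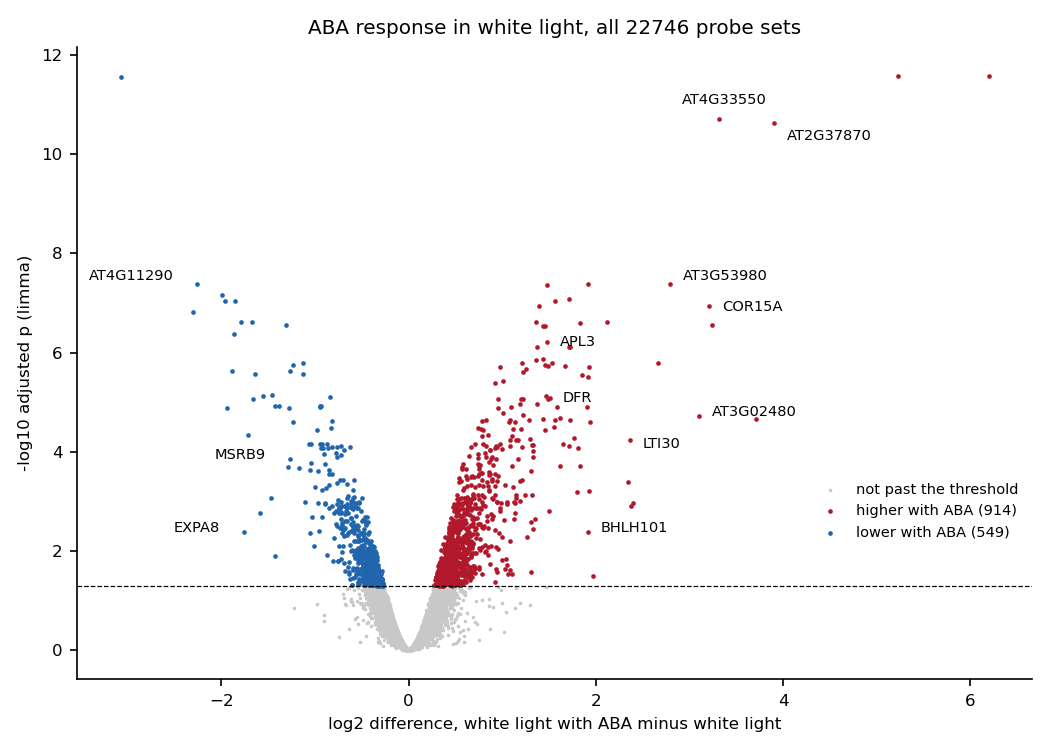
Log2 difference, white light with ABA minus white light, on the horizontal axis against -log10 of the limma adjusted p for each of 22746 probe sets, with 914 called higher in red and 549 called lower in blue above the dashed line at an adjusted p of 0.05. Among named genes AT2G37870 stands furthest right, at 3.90, and AT4G11290 furthest left, at -2.26, and the few points beyond them are unnamed probe sets.

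Genes for protective proteins were among the largest rises. COR15A (AT2G42540), a chloroplast protein that stabilises membranes in the cold, measured 11.01, 10.60 and 10.87 log2 units with ABA, against 7.92, 7.11 and 7.80 in white light. The groups stood far apart, and the fold was 9.26 (log2 difference 3.21, SE 0.20, limma adjusted p = 1.2e-07). AT3G02480, of the late-embryogenesis-abundant (LEA) proteins, which are hydrophilic and accumulate in drying tissue, measured 8.90, 8.25 and 8.76 with ABA, against 5.86, 4.63 and 6.10 in white light. Its white-light arrays were the more scattered ones and none reached the lowest array with ABA. The dehydrin LTI30 (AT3G50970) measured 7.12, 7.17 and 8.42 with ABA, against 5.50, 5.13 and 4.99 in white light, where replicate 3 with ABA stood above the rest.

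LEA4-5 (AT5G06760) was detected on no white-light array and on 2 of 3 with ABA, and was at least 3.31-fold higher there. HIS1-3 (AT2G18050), a linker histone known to respond to drought, measured 5.15, 4.99 and 5.32 with ABA, against 3.60, 2.86 and 3.44 in white light. COR15B (AT2G42530), the neighbour and close relative of COR15A, was 3.07-fold higher (adjusted p = 1.9e-04). COR47 (AT1G20440), another dehydrin, differed by 0.61 (adjusted p = 0.017). Its adjusted p was 0.058 to 0.083 when white light replicate 2 (difference 0.41), white light with ABA replicate 1 (0.55) or white light with ABA replicate 3 (0.59) was left out. The list for this group holds protective proteins known to respond to ABA and was chosen with earlier results of these data known. Rises among its genes are therefore no test. Of its 25 genes 9 were measured, with a median of 1.73 against -0.002 over all probe sets. Of the 9 genes 7 rose, where 4.02% of all probe sets were called higher. The exceptions were DI21 (AT4G15910), at -0.15 with an adjusted p of 0.58, and the dehydrin AT1G54410, at -0.09 and 0.64. AT1G54410 was already high, with 11.46 ± 0.09 log2 units with ABA and 11.55 ± 0.06 in white light (SD, n = 3 each). A second count, of the 7 measured genes whose symbol or synonym matched a pattern for LEA proteins and dehydrins, gave a different picture. LEA4-5 alone of these rose, 6 were not called, and the median was 0.20. AT2G46140, an LEA gene, differed by -0.38 (adjusted p = 0.058) and was called lower when arrays were centred on their medians (-0.43, adjusted p = 0.025).

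AT2G37870, AT4G33550 and AT3G53980, among the 5 largest rises of named genes, are known as genes of the lipid-transfer protein family, small secreted proteins that bind lipids. They were put together after their values were seen, the symbol pattern for the family matched 0 genes, and how many of its other genes were measured or stayed uncalled was not counted. AT2G37870 measured 8.60, 8.91 and 8.91 with ABA, against 4.62, 4.95 and 5.15 in white light, a fold of 15 (adjusted p = 2.4e-11). AT4G33550 measured 8.89, 8.86 and 9.10 with ABA, against 5.45, 5.65 and 5.80. AT3G53980 measured 9.20, 9.16 and 9.19 with ABA, against 6.65, 6.14 and 6.37. For these 3 genes the difference exceeded the range within either group several times over, and the lowest of the 3 differences was 2.80 log2 units. A further member, AT1G62510, which was chosen after its values were seen, differed by 1.24 (adjusted p = 7.4e-04). WSD1 (AT5G37300), a wax ester synthase and the measured member of the cuticle list, differed by 0.35 and was not called (adjusted p = 0.070). AT5G38710, the measured gene of the compatible solute list, was detected on no array of either group.

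**Figure D2:**
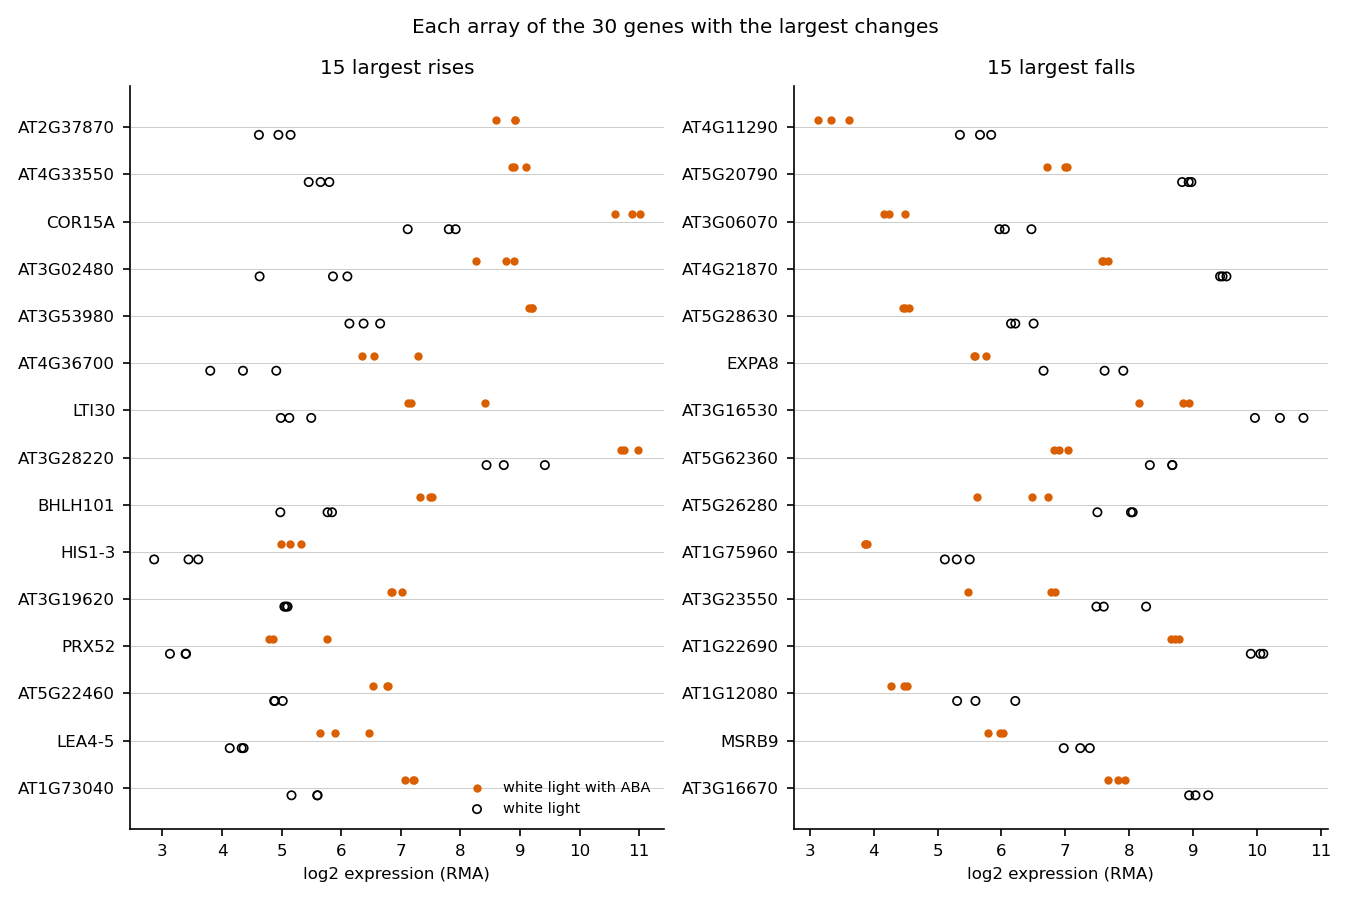
Log2 expression (RMA) on the horizontal axes of the 15 named genes with the largest rises and the 15 with the largest falls, with each of 3 arrays in white light with ABA as a filled point and each of 3 arrays in white light as an open circle below it. In all 30 genes the 2 sets of points do not overlap, as the rule that chose the genes requires.

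The other large rises belonged to varied functions. AT4G36700, a cupin-domain gene, measured 7.28, 6.54 and 6.35 with ABA, against 4.35, 3.80 and 4.91 in white light, and was detected on 1 white-light array (5.18-fold, SE 0.38 log2 units, adjusted p = 0.0012). AT3G28220, which encodes a protein with a TRAF-like domain, rose by 1.94, while AT5G26280, with the same kind of domain, fell by 1.59 on the log2 scale. AT1G73040, a lectin gene of the jacalin type, measured 7.22, 7.07 and 7.21 with ABA, against 5.17, 5.60 and 5.60 in white light. The jacalin-type genes AT1G52000 (1.71, adjusted p = 7.6e-05) and JAL23 (0.96, adjusted p = 3.0e-04) were also higher; they were picked out after their values were seen. AT3G19620, a glycosyl hydrolase gene, rose 3.56-fold (adjusted p = 2.6e-07). AT5G22460, an alpha/beta hydrolase gene, was detected on no white-light array and was at least 3.41-fold higher with ABA.

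Genes of the late steps of anthocyanin synthesis rose together. Anthocyanins are red to purple flavonoid pigments that leaves make under bright light, cold and drought. DFR (AT5G42800), the reductase that commits the pathway to them, measured 10.74, 10.51 and 10.58 log2 units with ABA, against 8.90, 9.09 and 9.30 in white light. UF3GT (AT5G54060), which adds a sugar to the pigment, measured 9.49, 9.61 and 9.21 with ABA, against 7.66, 7.89 and 7.92. AT4G14090, another glycosyltransferase gene, differed by 1.56, the malonyltransferase AT5MAT (AT3G29590) by 1.30, and UGT78D2 (AT5G17050), which glycosylates flavonols and anthocyanins, by 0.65. The least certain of these 5 rises had an adjusted p of 0.0032. CHIL (AT5G05270), related to the chalcone isomerase that acts early in the pathway, also rose, by 0.59 (adjusted p = 5.3e-04). HYH (AT3G17609), a light-signalling transcription factor of the same list, fell by 0.36 on the log2 scale (adjusted p = 0.049). In the 5 fits without white light replicate 1 or 2 or any 1 array with ABA its adjusted p was 0.097 to 0.188. In all, 5 of 6 measured genes rose and 1 fell, of 31 listed, with a median of 1.40. Over all probe sets 4.02% were called higher and 2.41% lower. This list too was chosen with earlier results of these data known, so its count is no test.

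Starch genes formed a further group, which was listed after the values were seen. APL3 (AT4G39210), a large subunit of the ADP-glucose pyrophosphorylase that feeds starch synthesis, measured 7.77, 7.51 and 7.28 with ABA, against 6.12, 6.07 and 5.92 in white light (2.79-fold, adjusted p = 6.1e-07). Its relative APL4 (AT2G21590) differed by 0.82, with SDs of 0.31 with ABA and 0.28 without it. AT4G24450, annotated as a phosphoglucan water dikinase, an enzyme class that phosphorylates starch before breakdown, rose by 1.07. Smaller differences were found for the branching enzyme SBE2.2 (0.39) and for AT5G26570, a further dikinase gene (0.35). Of 40 listed genes 7 were measured, 5 rose and none fell, against 4.02% higher and 2.41% lower over all probe sets. Because the list was made with the values known, this count is no test. DPE1 (0.11) and AMY1 (0.16), which act on starch breakdown products and on starch, were not called, and AMY1 was detected on no array of either group. Without 1 array, the adjusted p went above the threshold for APL4 (0.051 without white light replicate 3, 0.060 without white light with ABA replicate 1), for SBE2.2 (0.051 without white light with ABA replicate 1) and for AT5G26570 (0.056 without the same array, 0.070 without white light replicate 2, 0.071 without white light with ABA replicate 3).

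Sugar and nutrient transporters changed unevenly. SAG29 (AT5G13170), a sugar exporter of the SWEET family that is also a senescence marker, measured 8.42, 8.41 and 8.06 with ABA, against 6.67, 6.37 and 7.09 in white light. SWEET13, of the same family, was detected on no white-light array and on all 3 with ABA, where it was at least 2.34-fold higher. SWEET2, a vacuolar member, ran the other way at -0.36 (adjusted p = 0.036), and its call was lost in every fit that left out 1 array other than white light replicate 3 (adjusted p 0.066 to 0.144). Of 17 genes that the symbol pattern for sugar transport found, 4 rose and 1 fell, against 4.02% higher and 2.41% lower over all probe sets. Among the rises, SWEETIE (0.46, adjusted p = 0.019) matched by its symbol and is not a SWEET transporter. Its call was lost without white light replicates 1 or 3 or ABA replicates 2 or 3 (0.056 to 0.082). The other senescence genes, WRKY53 (0.48, adjusted p = 0.16) and WRKY6 (0.03), were not called. Of 12 nitrate and peptide transporter genes 2 rose, where 4.02% of all probe sets were called higher. AT1G68570 rose by 0.97 and measured 9.57, 9.67 and 9.44 with ABA, against 8.66, 8.69 and 8.40. AT1G59740 rose by 0.59. AT5G20790, the measured member of the phosphate starvation list, fell to 6.72, 7.03 and 7.0 with ABA, against 8.98, 8.93 and 8.83 in white light (3.99-fold lower, adjusted p = 6.9e-08).

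The iron-deficiency regulators BHLH101 (AT5G04150) and PYE (AT3G47640) were higher with ABA. BHLH101, a transcription factor that raises iron uptake genes, measured 7.53, 7.49 and 7.31 with ABA, against 5.85, 4.98 and 5.77 in white light (3.77-fold, SE 0.36 log2 units, adjusted p = 0.0041). PYE, which restrains genes of iron storage and transport, measured 7.08, 7.20 and 7.08 with ABA, against 6.78, 6.49 and 6.24. The PYE call (0.61, adjusted p = 0.012) was lost without white light replicate 3 (0.48, adjusted p = 0.053) or white light with ABA replicate 2 (0.58, adjusted p = 0.054). AT1G47400, a small-protein gene known to be induced by iron shortage and added after its values were seen, measured 10.43, 10.37 and 10.20 with ABA, against 9.25, 9.09 and 9.16. AT3G12900, added with it, was detected on no array of either group. Of 11 genes of the first iron list only BHLH101 and PYE were measured.

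Genes of amino acid breakdown, again listed after the values were seen, rose in part. MGL (AT1G64660), which cleaves methionine, measured 6.08, 6.46 and 6.44 with ABA, against 4.98, 4.82 and 5.06 in white light. ALDH7B4 (AT1G54100), an aldehyde dehydrogenase known to respond to drought, measured 9.26, 9.32 and 9.13 with ABA, against 8.43, 8.50 and 8.23. ETFALPHA (0.41) and MCCA (0.34), of the branched-chain amino acid route in mitochondria, were also called, and AT5G09300, listed for the same route, fell by 0.44 on the log2 scale. These 3 calls were less firm: without white light with ABA replicate 1 the adjusted p was 0.070 for ETFALPHA, 0.062 for MCCA and 0.132 for AT5G09300. MCCA also lost its call when arrays were centred (difference 0.28, adjusted p = 0.074), which left 3 rises, under quantile normalization (0.061), in a fit of the 2 white-light groups alone (0.068) and without any other single array except white light replicate 3 (0.078 to 0.143), and AT5G09300 without white light replicate 1, white light replicate 2 or ABA replicate 2 (0.066 to 0.117). Of 14 measured genes 4 rose, 1 fell and 9 were not called, with a median of 0.25. Over all probe sets 4.02% were called higher and 2.41% lower, and a count on a list made from these values is no test.

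**Figure D3:**
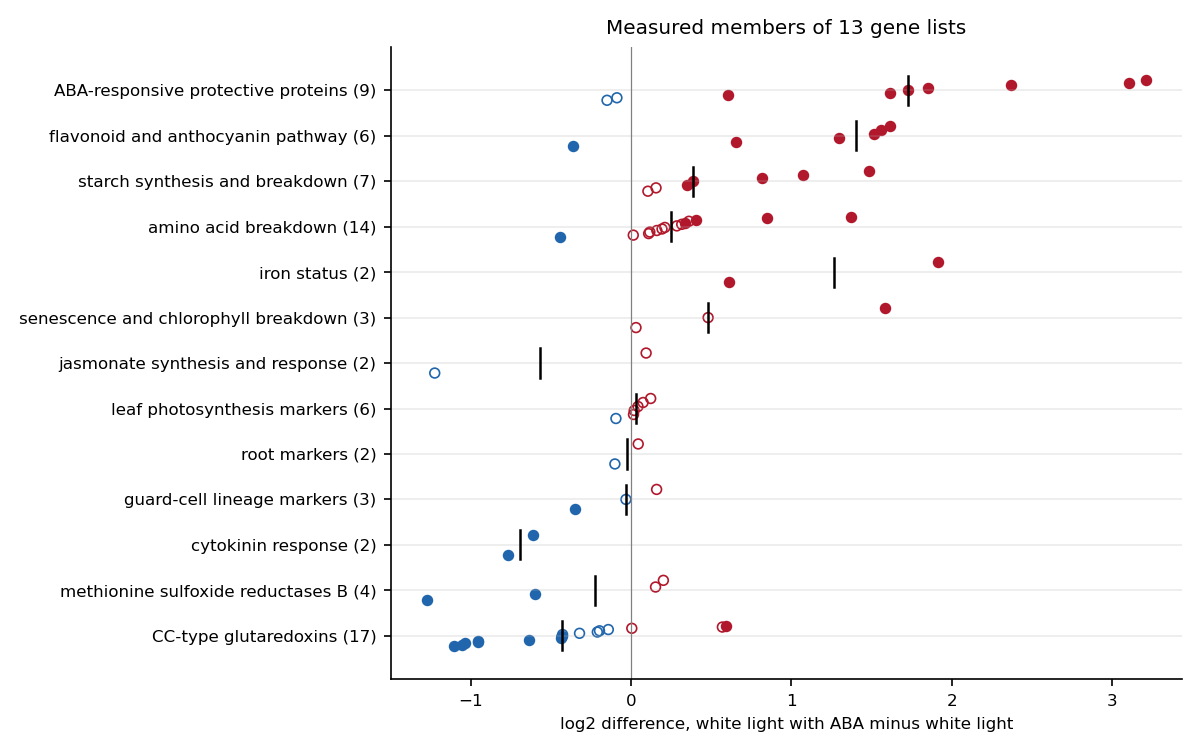
Log2 difference, white light with ABA minus white light, of each measured gene in 13 gene lists (number measured in parentheses), filled where called and open where not, with the list median as a bar. The lists of ABA-responsive protective proteins and of anthocyanin genes lie mostly to the right, with medians of 1.73 and 1.40. The glutaredoxin list lies mostly to the left, with a median of -0.43.

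Among the falls were genes of small redox proteins, a group that was listed after the values were seen. Glutaredoxins of the CC type are small plant proteins that act with transcription factors of the TGA class. AT1G06830 fell to 8.37, 8.42 and 8.14 with ABA, against 9.35, 9.16 and 9.27 in white light (difference -0.95, SE 0.09, adjusted p = 1.3e-05). The neighbouring genes AT4G15680, AT4G15690 and AT4G15700 fell by 1.10, 1.03 and 0.96 on the log2 scale, and transcripts of neighbours so similar may not be told apart by their probes. AT2G47880 was detected on all 3 white-light arrays and on none with ABA, where it was at least 2.07-fold lower. AT4G33040 rose by 0.60 (adjusted p = 8.6e-04). Of 17 measured genes 8 fell, 1 rose and 8 were not called, against 2.41% lower and 4.02% higher over all probe sets. Because the group was made from these values, this count is no test. AT3G62950 and AT3G62960 were detected on no array of either group. Of the 8 falls, AT2G30540, AT3G62950 and AT3G62960 lost their calls without certain single arrays, with adjusted p between 0.058 and 0.126. These arrays were white light replicate 1 for AT3G62950 and AT3G62960, replicate 2 for AT2G30540, replicate 3 for AT2G30540 and AT3G62950, and with ABA replicate 1 for AT3G62950 and AT3G62960, replicate 2 for AT2G30540 and AT3G62960, and replicate 3 for all 3 genes.

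MSRB9 (AT4G21850), a methionine sulfoxide reductase that repairs oxidised protein, measured 5.79, 5.97 and 6.02 with ABA, against 7.23, 7.38 and 6.98 in white light (2.41-fold lower). MSRB6 (AT4G04840) fell by 0.60 on the log2 scale, and MSRB3 (0.15) and MSRB5 (0.20) were not called. AT4G21870, with the domain of small heat shock proteins, measured 7.67, 7.57 and 7.60 with ABA, against 9.53, 9.43 and 9.46. Its SD was 0.05 in each group, and no array of one group came near the other.

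Cell wall genes were found on both sides. EXPA8 (AT2G40610), an expansin, a class of protein that loosens walls as cells extend, measured 5.59, 5.57 and 5.75 with ABA, against 7.62, 6.66 and 7.91 in white light (3.38-fold lower, SE 0.33 log2 units, adjusted p = 0.0042). EXPA16 (AT3G55500) went the other way, with 6.59, 6.49 and 6.68 with ABA, against 5.46, 4.91 and 5.39. The expansin-like genes EXLB1 (1.11) and EXLA1 (0.58, adjusted p = 0.046) were also higher. In all, 3 of 19 expansin genes rose and 1 fell, against 4.02% higher and 2.41% lower over all probe sets. With centred arrays 2 rose, since EXLA1 lost its call (0.52, adjusted p = 0.076). It lost it too under quantile normalization (0.063), with the 2 white-light groups alone (0.106), without white light replicate 2 (0.119) and without any 1 array with ABA (0.072 to 0.174). AT5G62360, of the pectin methylesterase inhibitor family, fell to 6.82, 6.90 and 7.04 with ABA, against 8.68, 8.33 and 8.68. XTH32, which remodels xyloglucan, was the called one of 10 such genes (0.34). It lost the call when arrays were centred (adjusted p = 0.057), where XTH19 (-0.49) and XTH20 (-0.36) were called lower instead, and without white light replicates 2 or 3 or ABA replicates 1 or 2 (0.061 to 0.114).

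Peroxidases of the secreted class, which act on wall polymers, split likewise. AT4G11290, the largest fall of a named gene, measured 3.32, 3.62 and 3.13 with ABA, where it was detected on no array, against 5.84, 5.66 and 5.35 in white light, and was at least 4.80-fold lower. PRX52 (AT5G05340), known from lignin formation, measured 5.76, 4.86 and 4.78 with ABA, against 3.13, 3.40 and 3.39 on white-light arrays, none of which detected it, so that it was at least 3.55-fold higher. Of the 6 measured genes that the family pattern found, which did not include AT4G11290, 2 rose and 1 fell. Over all probe sets 4.02% were called higher and 2.41% lower. The rises were PRX52 and AT5G64120 (0.87, adjusted p = 0.018). AT5G64120 lost its call with an intensity-trended variance and without white light replicate 1 or 3 or ABA replicate 1 (0.061 to 0.10). Prx37, detected on no array with ABA, was at least 1.47-fold lower (adjusted p = 0.0094). AT1G22690, of the gibberellin-regulated GASA family, fell to 8.77, 8.72 and 8.65 with ABA, against 10.06, 9.91 and 10.10.

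Cytokinin response genes were lower with ABA. ARR15 (AT1G74890) and RR16 (AT2G40670) are type-A response regulators, which cytokinin induces and which damp its signal. ARR15 measured 4.48, 4.77 and 4.43 with ABA, where no array detected it, against 5.35, 5.36 and 5.27 in white light, at least 1.70-fold lower (adjusted p = 0.0011). RR16 measured 5.34, 5.06 and 5.43 with ABA, against 5.89, 5.91 and 5.88 (-0.61, adjusted p = 0.0029). These 2 were the measured ones of 7 listed. UGT76C2 (AT5G05860), which inactivates cytokinins by adding glucose, fell by 0.97 on the log2 scale (adjusted p = 2.4e-04). Among 43 UDP-glycosyltransferase genes 3 rose and 4 fell, with UF3GT highest and UGT76C2 lowest. Over all probe sets 4.02% were called higher and 2.41% lower. UGT85A4 (-0.51), UGT85A2 (-0.43) and UGT71B1 (0.33) lost their calls when certain single arrays were left out, with adjusted p of 0.054 to 0.114. UGT71B1 also lost its call in a fit of the 2 white-light groups alone (0.061).

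The legume lectin gene AT3G16530 measured 8.16, 8.94 and 8.84 with ABA, against 10.36, 10.73 and 9.97 in white light (3.28-fold lower). AT3G23550, of the MATE transporter family, differed by -1.42 (adjusted p = 0.013), with 5.48 in replicate 1 with ABA against 6.83 and 6.78 in the others. It lost its call without white light replicate 2 (adjusted p = 0.064) and with an intensity-trended variance (0.086). The jasmonate marker PDF1.2 varied between white-light arrays (9.87, 10.41 and 8.72) and was not called at -1.22 (adjusted p = 0.14). The salicylate marker GRX480 (0.01), the clock gene GI (-0.10) and the shade marker IAA29 (-0.06) were not called either. CML30, a calmodulin-like gene, fell by 0.76 on the log2 scale. It was the called one of 9 calcium-binding genes, where 2.41% of all probe sets were called lower. With centred arrays CML42 was called lower as well (-0.61).

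SPCH (AT5G53210), which starts the stomatal lineage, had 5.11, 5.06 and 5.20 log2 units with ABA, against 5.52, 5.56 and 5.33 in white light (adjusted p = 0.028). Its detection calls ran against this difference, with 3 arrays present with ABA and 1 in white light. The call was lost with an intensity-trended variance (adjusted p = 0.054), in a fit of the 2 white-light groups alone (0.054) and without either of white light replicates 1 and 2 or of ABA replicates 1 and 2 (0.091 to 0.112). The later lineage genes MUTE (0.16) and FMA (-0.03) were not called. Fewer cells of a type and less RNA per cell cannot be told apart in RNA from whole aerial parts.

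Of 7 WRKY genes WRKY20 rose (0.38), and of 22 bZIP genes BZIP17 (0.41). The symbol pattern for cytochrome P450 found 28 genes, among them cyclophilins such as SQN and CYP59, which are not P450 genes. Of the 28, 3 rose and 1 fell. CYP71B24 (0.67) led the rises, and CYP71B22, which no array with ABA detected, was lower there by at least 1.54-fold. Over all probe sets 4.02% were called higher and 2.41% lower. The calls of WRKY20, BZIP17, CYP71B24 and CYP71B22 were each lost when single arrays were left out. WRKY20 reached an adjusted p of 0.077 without white light replicate 2, 0.052 without white light with ABA replicate 2 and 0.078 without its replicate 3. BZIP17 reached 0.051 to 0.141 without white light replicate 1 or any 1 array with ABA. CYP71B24 reached 0.058 without white light replicate 1, and CYP71B22 0.051 to 0.153 without either of white light replicates 1 and 2 or of ABA replicates 1 and 2. CYP71B23 (0.65) and CYP71B28 (0.46) were the other rises of this pattern. CYP71B23 reached 0.091 to 0.174 without either of white light replicates 2 and 3 or of ABA replicates 1 and 2. CYP71B28 reached 0.082 without ABA replicate 1. None of 13 glutathione S-transferase genes, 7 Aux/IAA genes or 5 photosystem genes that the symbol patterns found was called. The Aux/IAA pattern was meant to cover GH3 genes too, but all 7 genes it found were Aux/IAA genes. WES1 (AT4G27260), a GH3-type enzyme that conjugates auxin and that the pattern did not catch, rose by 0.68 (adjusted p = 0.002). Of 69 plastid-encoded genes rps16, a ribosomal protein gene, alone was called: 7.58, 7.64 and 7.29 with ABA, against 8.12, 8.25 and 8.11 in white light (-0.66, adjusted p = 8.6e-04). The symbol pattern for ribosomal proteins found 16 measured genes, 15 of them plastid-encoded, with a median of -0.10. Beside rps16 the nuclear gene AT1G77750 fell, by 0.28 on the log2 scale (adjusted p = 0.038), and lost its call with the 2 white-light groups alone (0.075) and without any 1 of the 6 arrays (0.055 to 0.141). Of 7 genes of the histone pattern HIS1-3 alone was called, with a median of -0.09 over the 7, and of 7 bHLH genes BHLH101 alone.

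Some genes crossed the detection limit. There were 97 probe sets present on every array with ABA and absent on every white-light array, of which 31 were called different, and 7 in the reverse direction, of which 6 were called. The 12 named genes of the 31 included SWEET13, PRX52 and ATC (AT2G27550), a relative of the floral repressor TFL1. ATC measured 5.66, 5.72 and 6.22 with ABA, against 4.33, 4.36 and 4.55, at least 2.74-fold higher. The 3 named genes of the reverse set were AT4G11290, AT5G28630 and AT2G47880. AT5G28630 measured 4.49, 4.45 and 4.55 with ABA, against 6.50, 6.15 and 6.22, and was at least 3.47-fold lower. The larger number gaining detection runs the same way as the 3.20 point difference in present calls between the groups, and its part in that number was not tested.

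The far-red arrays, none of which enters the white-light difference, showed how the same probe sets behaved in other plants. Under far-red light ABA changed 2352 probe sets, 10.3% of those tested, with 1151 higher (5.06%) and 1201 lower (5.28%). With the replicate number as a block, 2694 far-red probe sets were called. Of the 914 probe sets higher with ABA in white light, 886 had a positive difference under far-red light and 609 were called there, or 66.6%. Of the 549 lower ones, 538 had a negative difference and 339 were called, or 61.7%. The 948 probe sets called the same way made up 64.8% of the white-light calls and 40.3% of the far-red calls. The white-light calls were chosen by their white-light values, with median differences of 0.52 and -0.47 there, against 0.47 and -0.38 under far-red light. Across the 1463 probe sets the 2 differences correlated at 0.938 (Pearson, a description over probe sets that share arrays).

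**Figure D4:**
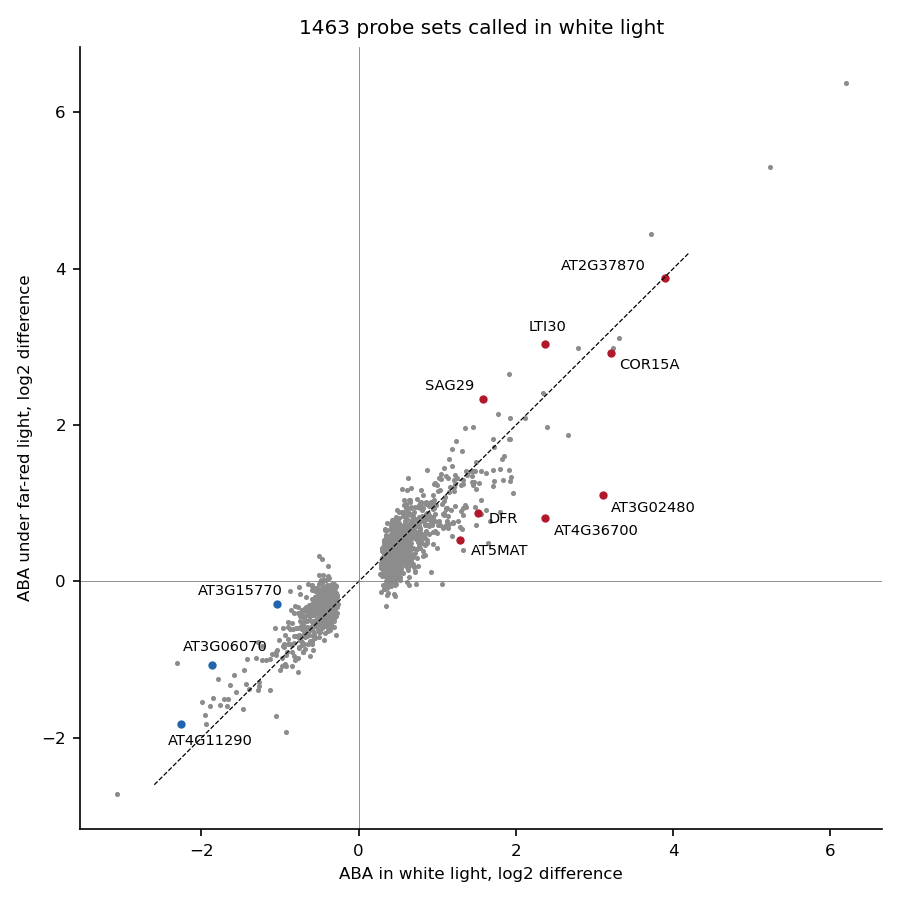
Log2 difference with ABA in white light (horizontal) against that under far-red light (vertical) for the 1463 probe sets called in white light, with the line of equal differences dashed. Most points lie near the line, while AT3G02480, at 3.10 and 1.11, and AT4G36700, at 2.37 and 0.81, lie below it.

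There were 514 probe sets called in white light and not called in either direction under far-red light, or 462 with the far-red calls of the blocked fit. With the replicate number as a block on both sides, 624 white-light calls were not called under far-red light. Being called in one condition only does not show a difference between conditions. The test of that difference, the light by ABA interaction, called 0 of 22746 probe sets (0.0%) by limma, with a smallest adjusted p of 0.400 and 1465 probe sets, 6.44%, at an unadjusted p under 0.05. No gene is therefore particular to white light by this test. Its median SE of 0.144 log2 units, against 0.101 for the white-light difference, limits what 12 arrays can show.

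As values only, 6 rises and 6 falls were taken from the single-gene probe sets called and changed at least 1.5-fold in white light, by the ratio of the interaction to its SE. Larger but less precise interactions existed, such as 1.56 for AT4G36700 and 0.70 for UF3GT. AT3G02480 rose by 3.10 in white light and by 1.11 under far-red light, an interaction of 2.00 (95% interval 1.03 to 2.96, adjusted p = 0.53). Without ABA its arrays measured 5.86, 4.63 and 6.10 in white light, below the 6.77, 6.82 and 7.47 of far-red light. For DFR the interaction was 0.63 (0.20 to 1.06), for AT5MAT 0.77 (0.32 to 1.21), and for CHIL 0.37 (0.11 to 0.64), all genes of the flavonoid pathway or related to it. For the starch gene APL3 it was 0.53 (0.20 to 0.86) and for AT3G19620 0.54 (0.16 to 0.92). Adjusted p for these 5 genes lay between 0.65 and 0.74. These intervals are not adjusted for the selection of the genes by this same quantity.

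**Figure D5:**
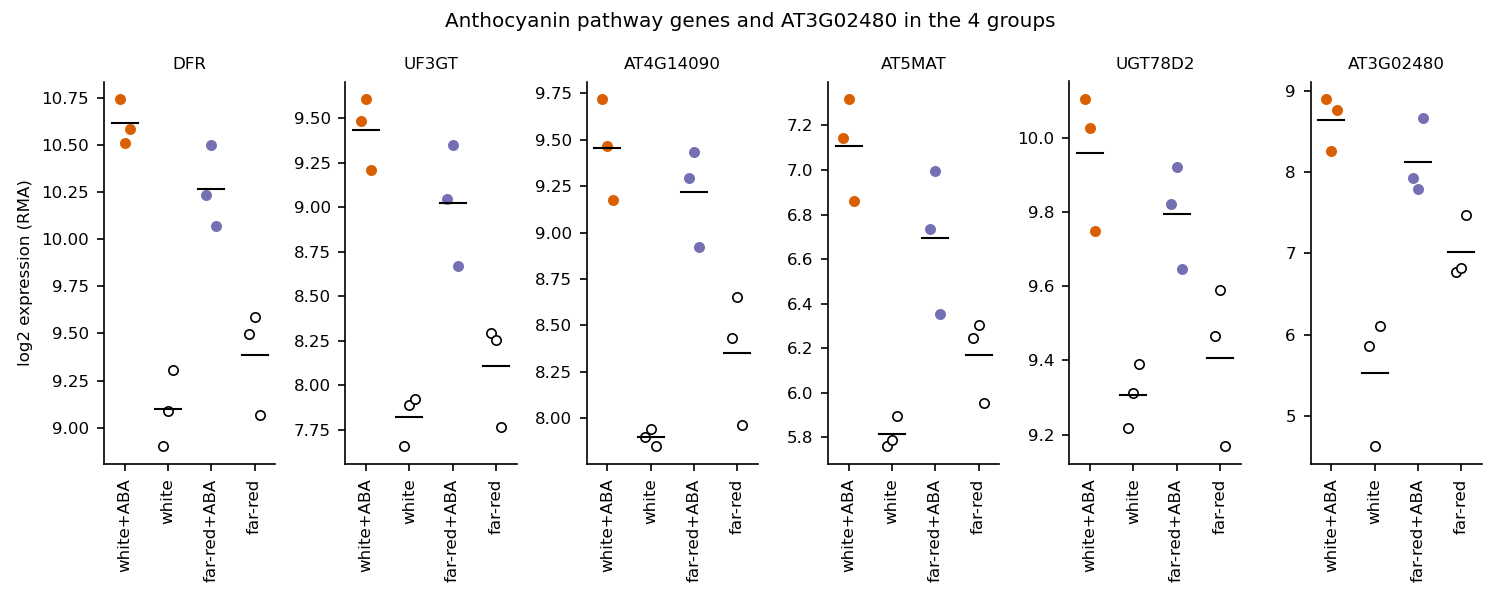
Log2 expression (RMA, axis range set per gene) of 5 genes of anthocyanin synthesis and of AT3G02480 on each of 3 arrays per group, with group means as bars. In all 6 genes the white-light arrays without ABA are the lowest of the 4 groups on average, and the arrays with ABA in white light the highest.

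Among the falls, AT3G15770 measured 4.53, 4.92 and 4.51 with ABA, against 5.62, 5.74 and 5.72 in white light, and differed by -0.28 under far-red light (interaction -0.76, -1.13 to -0.39). AT3G06070 fell by 1.87 on the log2 scale in white light and by 1.07 under far-red light (interaction -0.79, -1.20 to -0.39). AT4G16840 and AT5G59080 differed by -0.59 and -0.74 in white light, against -0.04 and -0.16 under far-red light. AT5G28630 (interaction -0.54) and AT3G50560 (-0.35) completed the 6. Adjusted p for these 6 interactions lay between 0.53 and 0.75.

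AT3G57570 had the smallest interaction p and was the one probe set called in opposite directions. It measured 5.36, 5.40 and 5.27 with ABA, against 5.06, 5.02 and 4.89 in white light. Under far-red light it measured 5.35, 5.42 and 5.43 with ABA, against 5.64, 5.84 and 5.67. The 2 groups with ABA lay between the 2 groups without it. The interaction was 0.67 (95% interval 0.41 to 0.92, limma adjusted p = 0.400). Its white-light call (0.35) was lost without white light replicate 3 (adjusted p = 0.078) or white light with ABA replicate 1 (0.073) or 2 (0.088). AT1G23390 followed, with a difference of -0.51 in white light and 0.32 under far-red light, the second of which was not called (adjusted p = 0.081). In NERD, AT2G19970, AT2G07520 and AT2G41250, the other 4 of the 6 smallest p, the white-light difference was between -0.22 and 0.15 and not called.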

How the data were processed

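Per the labels' protocols, RNA was DNase-treated, converted to biotin-labelled cRNA and hybridised to 1-colour Affymetrix arrays. The authors deposited log2 expression values per probe set from RMA with the affy package and MAS5 detection calls, per the submitters' processing notes. The sources used here give neither versions nor a genome build. RMA removes most uniform shifts between arrays and compresses low values. Groups came from the sample titles.

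Of 22810 probe sets 64 controls were left out. The platform's annotation listed 13513 with 1 gene, 503 with several and 8730 not at all, and the last 2 classes are unnamed here. Symbols came from the RefSeq gene table (assembly TAIR10.1, 13436 matched; 77 kept the platform's name). Roles of genes known by locus alone are general background. No coordinates or sequences were used.

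The test was limma (version 3.58.1, R 4.3.3). One linear model with 4 group means was fitted to the 12 arrays, contrasts were moderated with eBayes (residual df 8, prior df 7.21), and two-sided p-values were adjusted by Benjamini-Hochberg over 22746 probe sets with a threshold of 0.05. The fit was tested on simulated data. A fold against a group in which no array detected the gene is a lower bound, for which each array counts the higher of its own value and its lowest present value. Plots used Python 3.11.15 and matplotlib 3.10.9. Alternatives were other scalings, a detection filter, variance models, a fit of the compared groups alone, the replicate number as a block, array weights and leaving out each array.

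The comparison, 23 gene lists and 44 symbol patterns (described from 5 measured genes up) were chosen with earlier results of these data known, and 5 further lists after the values were seen. Named are the 15 largest rises and 15 largest falls among called single-gene probe sets whose groups do not overlap, called list members, the extreme called members of each family, the 6 rises and 6 falls with the highest ratio of interaction to SE among those called and changed at least 1.5-fold in white light, and the 6 smallest interaction p. Deviations of the white-light arrays with the same replicate number correlated at 0.153, 0.218 and 0.096, not above 0.1 in every pair, so the numbers were not taken as pairs there. In the far-red groups they correlated at 0.124, 0.143 and 0.273, above 0.1 in every pair, so far-red counts are also given with the replicate number as a block.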

Additional observations from a re-analysis of the deposited data

How the results depend on the processing

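Of 105 named genes followed, 83 were called, and 62 of these kept their call and direction in every fit. The call was lost by 21 in at least 1 fit without an array and by 5 (AT3G23550, SPCH, XTH32, CYP71B22 and MCCA) in another fit, and none reversed. These counts leave out other called family members named above. Of those, EXLA1, AT5G64120, UGT71B1 and AT1G77750 lost calls in both kinds of fit. UGT85A2, UGT85A4, SWEETIE, CYP71B23 and CYP71B28 lost theirs without single arrays. AT1G62510, AT1G52000, JAL23, WES1 and the genes picked out in the last section were not followed. Probe sets lower with ABA numbered 900 when arrays were centred on their medians. Without 1 array in turn, 908 to 1214 probe sets were called, 577 to 738 higher and 306 to 516 lower. The count was 908 without white light with ABA replicate 1 and 949 without its replicate 2. Lower probe sets were fewest without white light with ABA replicate 3 (306) or 1 (310) or white light replicate 2 (336) or 1 (344), against 549 with all arrays. The other alternatives called 1283 (only the groups compared) to 1899 (intensity-trended variance). With the replicate number as a block 1760 were called, 1082 higher and 678 lower, and the interaction called 0. The interaction called 2 probe sets with an intensity-trended variance and 0 to 2 without 1 array in turn: 1 without white light replicate 3, 2 without far-red replicate 3, 0 without any other. Adjusted over the 3914 probe sets called on the averaged ABA effect it called 0, with a smallest adjusted p of 0.0924. Centred arrays turned the xyloglucan endotransglucosylase family's 1 rise into 0 rises and 2 falls, added 1 fall to the 1 rise of the LEA and dehydrin family, gave 2 falls, against 1, among calcium-binding genes, and left 2 rises, against 3, among expansins; the cause was not tested. Under far-red light the replicate block, added after seeing the data, called 2694 probe sets, against 2352 without it, and 1000 white-light calls were called the same way, against 948. With the block on both sides 1134 were called the same way and 624 white-light calls were not called under far-red light. The planned comparison of promoter motifs was not run, and promoter sequences were not used here. Genes near the detection limit are compressed by RMA, so that their folds are understated, and 3 arrays per group limit the precision.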

Other observations

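Other genes were picked out after their values were seen. BETA-VPE (AT1G62710), a vacuolar processing protease known from seeds, was higher with ABA (6.43, 6.45 and 6.41 log2 units, against 4.80, 4.81 and 5.00 in white light; limma adjusted p = 9.0e-08). PPDK (AT4G15530), which makes phosphoenolpyruvate from pyruvate, measured 9.04, 9.05 and 8.98 with ABA, against 8.10, 7.82 and 7.92. FDH (AT5G14780), the formate dehydrogenase of mitochondria, differed by 0.87 (adjusted p = 0.0078).

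ALN (AT4G04955), the allantoinase of purine breakdown, measured 5.33, 5.04 and 4.80 with ABA, against 6.44, 5.86 and 6.39 in white light (adjusted p = 2.1e-04). The thionin genes THI2.2 (AT5G36910) and AT1G66100, for small antimicrobial proteins, were lower, at -1.23 (adjusted p = 2.5e-05) and -1.05 (adjusted p = 1.7e-04). The thionin THI2.1 of the jasmonate list was not called (0.09). AT5G61590, an AP2/ERF transcription factor gene, measured 8.06, 8.11 and 8.03 with ABA, against 9.05, 8.91 and 9.05 in white light.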
